A study of Mus musculus with 8 samples.

Results

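The genes described here are 10 markers of type 2 conventional dendritic cells (cDC2), namely Cd4, Clec4a4, Cd209a, Esam, Itgam, Clec12a, Mgl2, Clec10a, Notch2 and Dtx1. They were taken by symbol from the 31053 rows of the deposited gene count table, and each symbol had 1 row. The table comes from mouse spleen dendritic cells that were cultured with 100 nM CpG-B, a Toll-like receptor 9 ligand, for 9 h and then sorted for CD11c and MHC class II after cells with lineage markers were gated out. The 4 wild-type (WT) libraries are D142, D150, D154 and D164, the 4 labelled CKO are D146, D149, D163 and D169, and both genotypes received CpG-B. Values per library are given in this order. The sources used here name neither the gene deleted in CKO nor a Cre driver, strain, age or pooling of animals, so the level of the targeted gene was not checked. The labels do not say that libraries came from separate animals, so p-values measure the spread between these libraries, part of which may be technical.

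Conventional dendritic cells fall into a cDC1 branch, which cross-presents antigen to CD8 T cells, and a cDC2 branch, which presents mainly to CD4 T cells. In the mouse spleen a large cDC2 subset with high ESAM and CD4 depends on the receptor NOTCH2, which meets its ligand DLL1 on stromal cells near the marginal zone. After ligand binding, ADAM10 and then gamma-secretase cut the receptor, and its intracellular domain joins RBPJ in the nucleus to switch on target genes such as Dtx1. A second splenic cDC2 subset has low ESAM and is richer in CLEC12A.

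Total counts per library ran from 25304765 to 40950088, and Pearson correlations of log2 CPM between libraries lay between 0.957 and 0.988. CPM stands for counts normalised to library size, here with TMM scaling. Transcripts of the MHC class II gene H2-Ab1, a sort marker, stood at 1225 to 3200 CPM, while Itgax, which encodes the sort marker CD11c, stood at 5.79 to 10.5 CPM. The libraries hold both cDC branches without a gate between them, so the marker levels are those of the whole sort. In such bulk samples fewer cells of a type and less RNA per cell cannot be told apart.

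The cDC2 markers were scarce in these activated cells. Together the 10 genes took 0.00435% to 0.00677% of the counts of a library. Levels were compared between genes as CPM per kilobase of the gene length in the table, as mean ± SD over the 8 libraries. Esam led at 6.72 ± 1.91, followed by Dtx1 at 3.48 ± 0.83 and Clec4a4 at 1.36 ± 0.67 CPM per kilobase. Notch2 (0.55 ± 0.20), Clec12a (0.55 ± 0.17), Itgam (0.37 ± 0.10), Cd209a (0.35 ± 0.39) and Cd4 (0.17 ± 0.13) came next, and the SD ranges of neighbours from Clec4a4 down to Cd4 overlapped. Esam lay above Dtx1 in 7 of 8 libraries, and Dtx1 above Clec4a4 in all 8. Notch2 lay above Clec12a in 4 of 8, so these 2 genes have no order. Mgl2 and Clec10a were close to 0, at 0.0065 and 0.0025 CPM per kilobase.

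Cd4 was the member that passed the test between genotypes, and it was higher in CKO. Of the 8 members with enough counts to test, 1 was higher in CKO, 0 were lower and 7 did not pass, by the quasi-likelihood test of edgeR, Benjamini-Hochberg adjusted over all 11702 genes tested, at a threshold of 0.05. Over all genes tested, 8.87% passed that threshold (4.3% higher and 4.57% lower), so 1 of 8 members is close to the background. DESeq2 and limma-voom also called 1 of the 8, where they called 17.2% and 10.1% of all genes. At an unadjusted p under 0.05 edgeR again gave 1 higher and 0 lower, against 28.6% of all genes. With only 8 members tested, 1 call cannot be told apart from any of these shares. The median log2 fold change of the 8 tested members was 0.20, against 0.03 for all genes tested. Scaling by total counts moved the median of all genes to 0.19 and the calls to 1080 higher and 311 lower, from 503 and 535 with TMM.

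**Figure D1:**
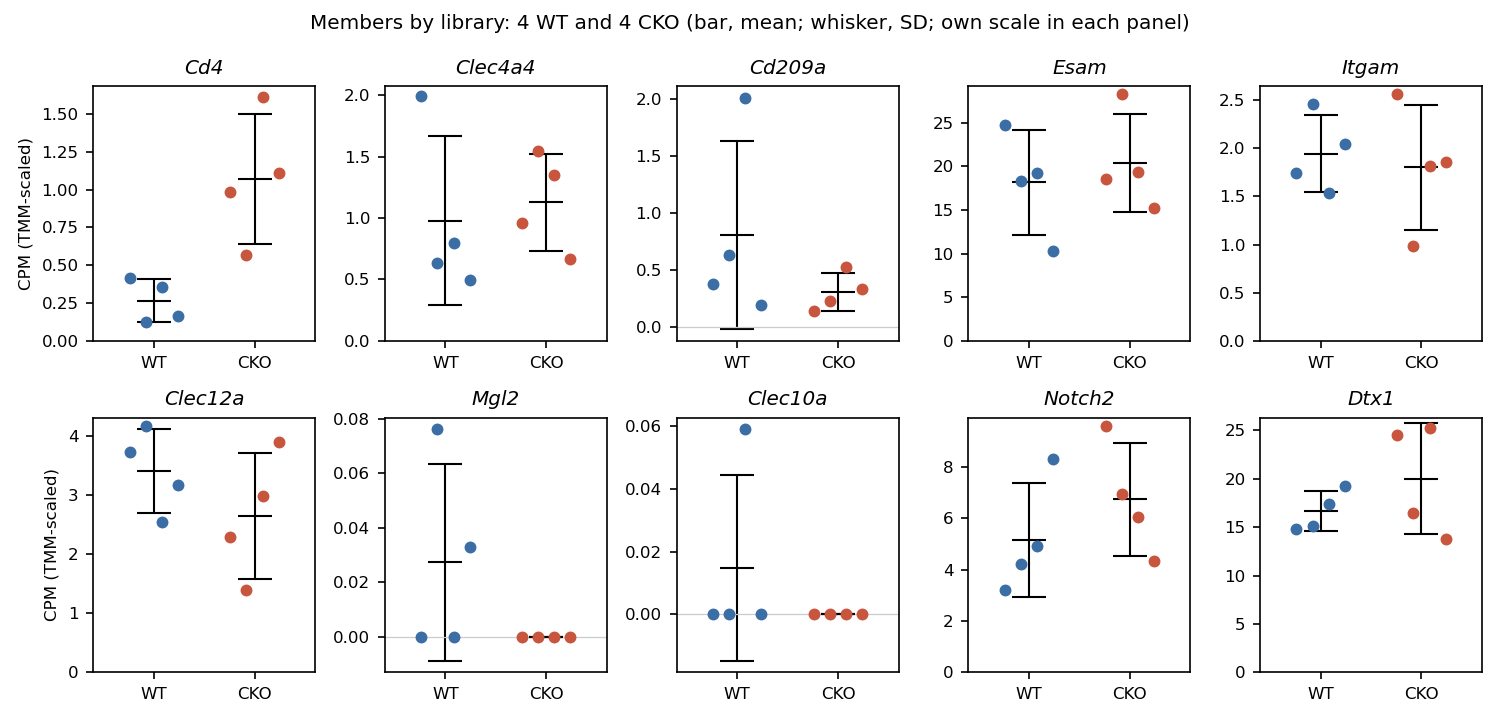
CPM of each of the 10 members in the 4 WT (blue) and 4 CKO (red) libraries, with the mean as a bar and the SD as whiskers; libraries run in number order within each genotype and each panel has its own linear scale. In Cd4 the CKO libraries, at 0.567 to 1.61 CPM, lie above the WT libraries, at 0.127 to 0.415 CPM, and in the other panels the genotypes overlap.

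Cd4 encodes the coreceptor of MHC class II-restricted T cells, which mouse splenic cDC2 also carry (chromosome 6, 124864692 to 124888221, minus strand, mm10). In WT it had 10 counts in D142, 5 in D150, 12 in D154 and 5 in D164, or 0.415, 0.127, 0.355 and 0.165 CPM. In CKO it had 36 counts in D146, 15 in D149, 55 in D163 and 30 in D169, or 0.983, 0.567, 1.61 and 1.11 CPM. All 4 CKO libraries were above all 4 WT libraries. Among all genes tested, the genotypes did not overlap in 15.9%, and in 7.85% with CKO on top. The means were 0.27 ± 0.14 CPM in WT and 1.07 ± 0.43 CPM in CKO (SD, n = 4 each). The log2 fold change was 2.04 ± 0.48 (SE; 95% interval 0.98 to 3.09), with an edgeR adjusted p = 0.0291. The rise rests on 32 counts in WT and 136 in CKO. Cd4 passed the low-count filter of edgeR through its CKO libraries, the group where it is high. Without that filter its edgeR adjusted p was 0.0277.

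The call of Cd4 was lost in some fits without 1 library and with the B cell markers as a covariate. It was lost without WT D150 (edgeR adjusted p = 0.0988), WT D154 (0.0732), CKO D163 (0.0998) or CKO D169 (0.0575), with log2 fold changes of 1.78 to 2.23 in these fits. Calls over all genes fell in the same fits, from 1038 to 82, 138, 70 and 457 in this order, so the loss was not particular to Cd4. The sum of 13 B cell markers was 31.7 to 62.0 CPM in WT and 31.9 to 147 CPM in CKO (exact two-sided permutation p = 0.114 of 4 against 4, 0.21 after adjustment over 11 cell type lists). Of the 10 B cell markers tested, 1 (Ms4a1) was higher in CKO, 0 were lower and 9 did not pass, 9 had a log2 fold change above 0, and their median was 1.26. CKO D149, the lowest CKO library for Cd4, was also the lowest CKO library for the B cell markers, and CKO D163 was the highest for both. Against WT the 2 measures differed in CKO D149. Its B cell sum (31.9 CPM) was below those of WT D142, D150 and D154 (59.5, 37.5 and 62.0 CPM). Its Cd4 level was above all WT libraries. Whether B cells contributed to the Cd4 counts was not tested. With the mean log2 CPM of the 10 of those markers that passed the low-count filter as a covariate, Cd4 changed by 1.34 on the log2 scale with an edgeR adjusted p = 0.106, and 3.97% of all genes passed in that fit. Among 8230 other genes averaging 5 CPM or more, those closest to Cd4 over the 8 libraries in log2 CPM were Ighm, the immunoglobulin mu heavy chain gene (Pearson r 0.98), Mto1 (0.975) and Nt5c2 (0.969). Within genotypes, as deviations from each group's mean, these correlations were 0.936, 0.942 and 0.874. Ighm was itself higher in CKO (mean 327 CPM, log2 fold change 1.18, edgeR adjusted p = 0.0114). Mto1 and Nt5c2 did not pass (adjusted p = 0.103 and 0.137). With 8230 genes searched over 8 libraries, high correlations can arise without a link between the genes.

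T cell transcripts were measured beside Cd4 because T cells carry it too. The 14 T cell markers summed to 278 to 368 CPM in WT and 325 to 367 CPM in CKO (exact permutation p = 0.343, two-sided), a sum in which Il7r is the largest part. Of the 13 T cell markers tested, 1 was higher in CKO, 0 were lower and 12 did not pass, 10 had a log2 fold change above 0, and their median was 0.41. The marker that passed was Trac, the constant region of the T cell receptor alpha chain, at 3.13 ± 0.64 CPM among WT and 5.75 ± 0.80 CPM among CKO libraries without overlap (log2 fold change 0.88, edgeR adjusted p = 0.0323). Cd3g also did not overlap between genotypes (log2 fold change 0.99, adjusted p = 0.0863), while Cd3d (0.42), Trbc2 (0.41), Cd247 (0.07) and Cd3e (-0.26) overlapped. The 6 receptor complex genes, a list added after the data were seen, summed to 18.8 to 29.4 CPM in WT and 23.4 to 45.4 CPM in CKO (exact permutation p = 0.257). With their mean log2 CPM as a covariate, Cd4 changed by 1.76 on the log2 scale and the edgeR adjusted p was 0.0524, in a fit that called 11.2% of all genes.

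**Figure D2:**
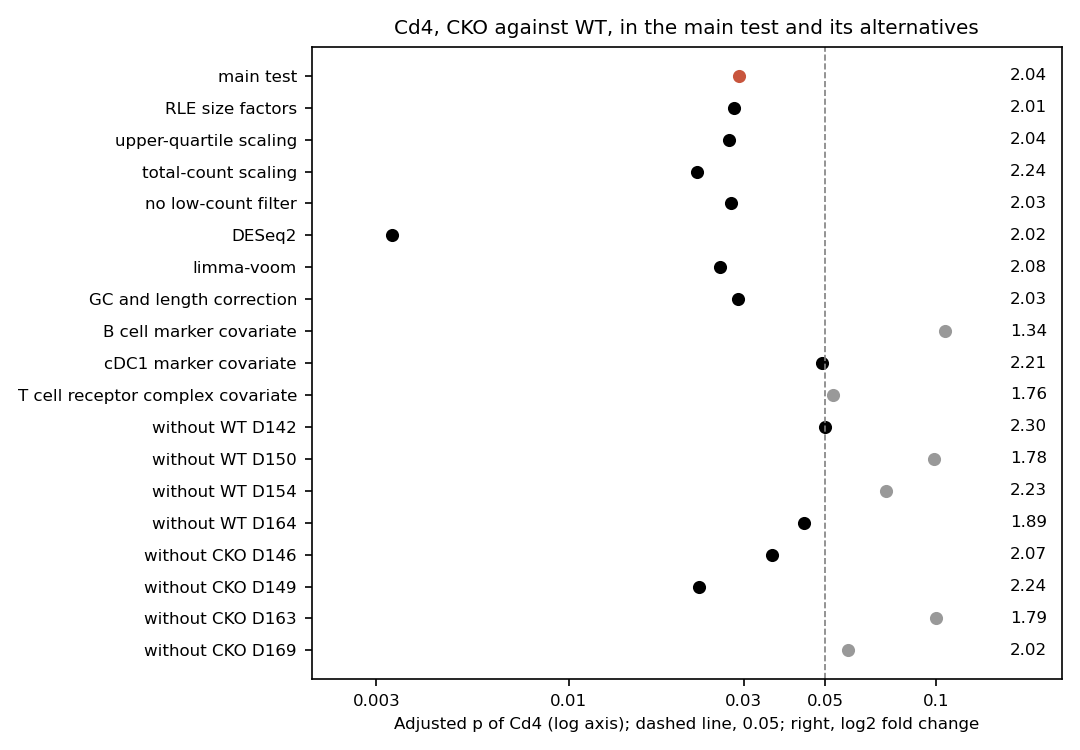
Adjusted p of Cd4 on a log axis in the main test (red) and in its alternatives (black, past the 0.05 threshold; grey, not), with the log2 fold change of each printed at the right. The log2 fold change stays between 1.34 and 2.30, while the adjusted p runs from 0.0033 with DESeq2 to 0.106 with the B cell marker covariate.

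Esam encodes an adhesion molecule of the immunoglobulin superfamily that marks the NOTCH2-dependent splenic subset (chromosome 9, 37528078 to 37538319, plus strand). WT libraries had 24.8, 18.4, 19.2 and 10.3 CPM, and CKO libraries 18.5, 28.3, 19.4 and 15.3 CPM. WT D164 was the lowest library and CKO D149 the highest, and the genotypes overlapped. The log2 fold change was 0.17 ± 0.26 (SE; 95% interval -0.40 to 0.73; edgeR adjusted p = 0.709), and it turned to -0.01 without WT D164 and to -0.035 without CKO D149. Endothelial cells also carry Esam. Of 9 endothelial markers, Emcn, Tek, Tie1 and Cldn5 had 0 counts in all 8 libraries and Cdh5 had 7 counts over WT and 2 over CKO, while the list's sum of 108 to 205 CPM came mainly from Kdr and Pecam1. Among 8230 genes searched, those closest to Esam over the 8 libraries were Dcp1b (Pearson r 0.932), Mterf3 (0.926) and 4921524J17Rik (0.926). In a search this wide such values can arise without a link between the genes.

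The receptor and its target gave no call. Notch2 (chromosome 3, 98013527 to 98150361, plus strand) had 3.19, 4.22, 4.94 and 8.29 CPM in the WT libraries, and 9.59, 6.95, 6.06 and 4.34 CPM in the CKO libraries. CKO D146 was the highest library, but WT D164 was above 3 of the 4 CKO libraries. On the log2 scale the difference was 0.39 ± 0.31 (SE; 95% interval -0.30 to 1.07; edgeR adjusted p = 0.445). It was 0.72 without WT D164 and 0.16 without CKO D146.

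Dtx1 encodes deltex 1, an E3 ubiquitin ligase and a known Notch target (chromosome 5, 120680202 to 120711927, minus strand). Its WT values were 14.8, 15.1, 17.4 and 19.2 CPM, and its CKO values 24.5, 16.5, 25.2 and 13.8 CPM. CKO D146 and CKO D163 lay above every WT library and CKO D169 lay below them all. CKO over WT gave a log2 fold change of 0.26 ± 0.20 (SE; 95% interval -0.18 to 0.71; edgeR adjusted p = 0.416). B cells also carry Notch2 and Dtx1, and with the B cell marker covariate their log2 fold changes were 0.62 and 0.13 (edgeR adjusted p = 0.37 and 0.79). After correction for GC content and length Dtx1 changed by 0.50 on the log2 scale (edgeR adjusted p = 0.0788).

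The C-type lectin receptors of cDC2 were low and overlapped between genotypes. Clec4a4 encodes DCIR2, the antigen of the 33D1 antibody that marks splenic cDC2 (chromosome 6, 122990367 to 123024105, plus strand). Its WT values were 1.99, 0.635, 0.798 and 0.494 CPM, and its CKO values 0.956, 1.55, 1.35 and 0.668 CPM, with WT D142 the highest library. Clec4a4 had a log2 fold change of 0.23 ± 0.47 (SE; edgeR adjusted p = 0.787) and 0.81 without WT D142. Its sequence is close to that of its neighbour Clec4a2, and 15.7% of the 50-base words in its 776-base transcript also occur in Clec4a2 transcripts. The longest shared stretch is shown because reads inside it cannot be assigned to one of the 2 genes by sequence. It covers bases 75 to 237 of the transcript, in coding exons 1 to 3 (GENCODE M21, mm10, from chr6:122990441 to 123004046 with introns removed). Capitals mark the shared bases and lower case the 30 bases on each side.
Clec4a4: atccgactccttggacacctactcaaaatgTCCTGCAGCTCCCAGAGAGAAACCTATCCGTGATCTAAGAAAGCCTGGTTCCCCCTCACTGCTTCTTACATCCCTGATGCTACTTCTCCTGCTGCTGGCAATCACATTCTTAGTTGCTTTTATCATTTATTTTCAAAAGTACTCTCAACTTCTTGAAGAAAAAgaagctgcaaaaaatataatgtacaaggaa
Clec4a2 itself had 8 counts over the 4 WT libraries and 36 over the 4 CKO libraries, against 115 and 140 for Clec4a4.

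Cd209a encodes a mouse relative of the pathogen receptor DC-SIGN (chromosome 8, 3743397 to 3748984, minus strand). Its WT values were 0.373, 0.635, 2.01 and 0.197 CPM, and its CKO values 0.137, 0.227, 0.527 and 0.334 CPM. WT D154, with 68 of the 108 WT counts, was the highest library, and the genotypes overlapped. Cd209a had a log2 fold change of -1.40 ± 0.69 (SE; 95% interval -2.90 to 0.10; edgeR adjusted p = 0.203), and it was -0.41 without WT D154. The other Cd209 genes measured, Cd209b to Cd209g, had between 0 and 7 counts over each genotype.

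Clec12a encodes an inhibitory lectin that recognises uric acid crystals of dead cells (chromosome 6, 129342691 to 129365303, plus strand). Its WT values were 3.73, 4.17, 2.54 and 3.16 CPM, and its CKO values 2.29, 1.40, 2.99 and 3.89 CPM. CKO D149 was the lowest library and the genotypes overlapped. Clec12a had a log2 fold change of -0.36 ± 0.31 (SE; 95% interval -1.04 to 0.31; edgeR adjusted p = 0.471), and -0.16 without CKO D149.

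Mgl2 and Clec10a are neighbours on chromosome 11 (70130329 to 70137550 and 70156197 to 70170834, both on the plus strand) and encode galactose-binding lectins, CD301b and CD301a. CD301b marks cDC2 of the skin. Mgl2 had 3 counts in WT D150, 1 in WT D164 and 0 in the other libraries, and Clec10a had 2 counts in WT D154 and 0 elsewhere. In CKO both had 0 of 117028944 counts, which allows up to 0.0256 CPM each for counting error alone. Neither was tested and no fold change is given. The 2 transcript sets share 270 words of 50 bases, and 13.1% of the words of Mgl2 occur in some other gene.

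Itgam encodes CD11b, the integrin alpha chain used to gate cDC2 (chromosome 7, 128062640 to 128118491, plus strand). Its WT values were 1.74, 2.46, 1.54 and 2.04 CPM, and its CKO values 2.57, 0.982, 1.82 and 1.85 CPM. CKO D146 was the highest library and CKO D149 the lowest. Itgam had a log2 fold change of -0.10 ± 0.32 (SE; 95% interval -0.80 to 0.59; edgeR adjusted p = 0.86). It was 0.068 with total-count scaling and 0.094 without CKO D149. Exons of Itgam overlap the longer model Gm49368 on the same strand, which contains 66.3% of its 50-base words, so its counts are uncertain. That model had 0 to 7 counts per library. Neutrophils, monocytes and NK cells also carry CD11b. The 11 neutrophil markers summed to 0.124 to 1.93 CPM in WT and 0.0742 CPM at most in CKO, with 5 at 0 counts in all libraries (exact permutation p = 0.0286, two-sided, the smallest possible; 0.157 adjusted over 11 lists). The 15 monocyte and macrophage markers summed to 72.8 to 104 CPM in WT and 44.1 to 90.2 CPM in CKO (exact permutation p = 0.0857, two-sided; 0.189 adjusted over 11 lists). Of the 12 tested, 0 were higher in CKO, 2 were lower (Fcgr1 and Apoe) and 10 did not pass. The 8 red pulp macrophage markers summed to 117 to 170 CPM in WT and 38.8 to 106 CPM in CKO (exact permutation p = 0.0286, two-sided; 0.157 adjusted over 11 lists). The 10 NK cell markers summed to 519 to 1060 CPM in WT and 375 to 769 CPM in CKO (exact permutation p = 0.229). The part of these cells in the Itgam counts was not tested.

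Esam and Dtx1 made up most of the cDC2 marker signal in both genotypes, which is given as a description. Shares are those of the summed counts per kilobase of the 10 members. The sum was 12.8 ± 2.48 CPM per kilobase in WT and 14.3 ± 2.46 in CKO (SD, n = 4 each). Esam made up 48.3 ± 8.23% in WT and 49.5 ± 7.63% in CKO, and Dtx1 made up 25.7 ± 8.19% and 26.6 ± 6.07%. Esam and Dtx1 together held 73.1% to 79.4% of the sum in every library, although Esam alone ranged from 36.5% in WT D164 to 60.3% in CKO D149. Clec4a4 held 9.27 ± 4.74% in WT and 9.98 ± 2.05% in CKO, with WT D142 at 16.4%. Notch2 held 4.07 ± 2.60% and 4.36 ± 1.19%, and Clec12a 4.92 ± 1.32% and 3.61 ± 2.12%. Itgam held 3.15 ± 1.07% and 2.62 ± 1.09%, and Cd209a 3.84 ± 3.75% and 1.40 ± 0.77%. Without WT D154 the WT share of Cd209a was 2.02%. The share of Cd4 was 0.258% to 0.656% in WT and 0.859% to 2.58% in CKO, the only member whose shares did not overlap. Without division by length the order of the smaller shares changed. Esam then held 37.8% in WT and 37.8% in CKO, and Dtx1 35.4% and 36.6%. Notch2, at 11.1% and 12.3%, then stood above Clec4a4 at 2.01% and 2.06%. Cd209a then held 1.67% and 0.584%.

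**Figure D3:**
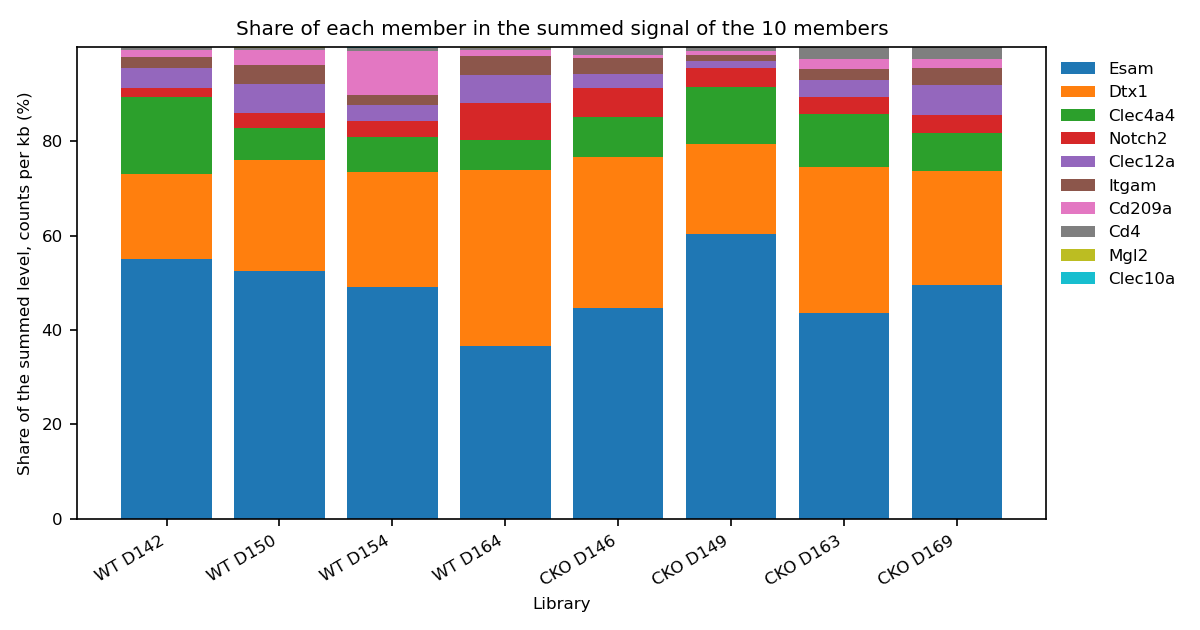
Share of each member in the summed signal of the 10 members, in percent of counts per kilobase, in each of the 8 libraries. Esam and Dtx1 fill 73.1% to 79.4% of every bar, and Mgl2 and Clec10a are too small to see.

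Other genes listed for cDC2 gave 1 higher and 0 lower among 17 tested, of 20 in the table, where 8.87% of all genes tested passed. The list is not specific to cDC2. Relb is also among the mature dendritic cell markers used here, and Ccr2 and Csf1r are among the monocyte and macrophage markers. How specific the other genes are was not tested, so the list's median does not measure cDC2 identity alone. At an unadjusted p under 0.05 edgeR gave 4 higher and 4 lower, against 28.6% of all genes. The median log2 fold change was -0.38 against 0.03 for all genes tested, with 6 genes above 0 and 11 below. The gene that rose was Tbx21, which encodes T-bet, a factor that marks a splenic cDC2 subset in the mouse. WT libraries lay between 153 and 192 CPM and CKO libraries between 221 and 267 CPM, with no overlap. Its log2 fold change was 0.52 ± 0.11 (SE; edgeR adjusted p = 0.0253), and the call was lost in 6 of 19 alternatives (highest adjusted p = 0.0849). These were the fits that left out D142, D150, D154 or D163 and those with the B cell or cDC1 marker covariate. T and NK cells carry Tbx21 as well. Irf4, a transcription factor needed by cDC2, averaged 157 ± 46.6 CPM (WT) and 233 ± 53.7 CPM (CKO) (edgeR adjusted p = 0.105). Zeb2, another factor of the lineage, stood at 27.7 ± 10.5 and 47.6 ± 12.3 CPM (0.0731), and Ccr6 at 1.23 ± 0.55 and 2.54 ± 0.34 CPM (0.073). The 4 lower by unadjusted p were Ltbr, Fcer1g, Relb and Cd24a. Ltbr, the lymphotoxin beta receptor gene, stood at 20.1 ± 1.81 and 11.7 ± 4.45 CPM (0.0578), and Fcer1g at 136 ± 35.5 and 88.2 ± 25.2 CPM (0.0933). Relb stood at 1073 ± 157 and 783 ± 177 CPM (0.114), and Cd24a at 107 ± 12.7 and 81.7 ± 17.2 CPM (0.133). Sirpa, the usual surface marker of cDC2, averaged 50.6 ± 12.9 CPM (WT) and 45.3 ± 5.38 CPM (CKO) (adjusted p = 0.577). On the cDC1 side, 14 markers summed to 4478 to 6113 CPM in WT and 3433 to 5547 CPM in CKO (exact two-sided permutation p = 0.286). Of the 13 tested, 0 were higher and 0 lower. Irf8 was the largest part, at 3386 ± 253 CPM (WT) and 3128 ± 496 CPM (CKO), and Batf3 averaged 231 ± 23.9 and 197 ± 25.2 CPM. The receptor genes Xcr1 and Clec9a stood at 0.48 to 1.26 and 0.56 to 1.70 CPM over all libraries. Cd8a, another cDC1 surface gene, averaged 57.1 ± 20.4 CPM (WT) and 41.9 ± 15.8 CPM (CKO; edgeR adjusted p = 0.356).

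Among 38 other genes of the Notch pathway, 30 were tested, 2 rose, 2 fell and 26 did not pass, with a median log2 fold change of -0.07. Over all genes tested, 8.87% passed (4.3% higher and 4.57% lower). Adam10, which encodes the protease that makes the first ligand-induced cut, rose from 16.2 ± 5.80 to 32.5 ± 4.42 CPM (log2 fold change 1.01 ± 0.24, SE; edgeR adjusted p = 0.0305). Itch, which encodes an E3 ubiquitin ligase that acts on Notch, rose from 27.1 ± 8.35 to 50.3 ± 5.32 CPM (edgeR adjusted p = 0.025). Dtx2, a second deltex gene, fell from 153 ± 20.8 to 59.3 ± 24.9 CPM (log2 fold change -1.37 ± 0.24, SE; edgeR adjusted p = 0.0124). Lfng, which encodes a glycosyltransferase that tunes Notch to its ligands, fell from 18.1 ± 2.88 to 8.17 ± 3.54 CPM (edgeR adjusted p = 0.0294). In all 4 genes the genotypes did not overlap, which held for 15.9% of all genes tested. CKO D146 was the CKO library nearest to WT in Dtx2 and Lfng.

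The calls of these 4 genes differed in how far they held. Calls over all genes also fell in several of these alternatives, from 1038 to 70 without CKO D163. Dtx2 lost its call in 2 of 19 alternatives, without WT D150 or CKO D163 (highest edgeR adjusted p = 0.0529), and Itch in 3, which left out WT D150, WT D154 and CKO D163 in turn (0.0827). Adam10 lost it in 6, with D150, D154, D163 or D169 left out and with the B cell or cDC1 marker covariate (0.0979). Lfng lost it in 8, with any one of D142, D150, D154, D163 and D169 left out, with either marker covariate and after the GC and length correction (0.104). Ligands, receptors and targets were not called. The ligand gene Dll4 lay between 532 and 585 CPM among WT libraries and between 500.2 and 862 CPM among CKO libraries (edgeR adjusted p = 0.149) and Rbpj at 92.3 ± 15.4 and 103 ± 18.9 CPM (0.563). The receptor gene Notch1 stood at 5.60 ± 1.53 and 5.22 ± 1.99 CPM (0.864). The target gene Hes1 stood at 0.44 ± 0.22 and 0.70 ± 0.27 CPM (0.375), and Nrarp, Hey1, Heyl and Hes5 were too low to test.

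**Figure D4:**
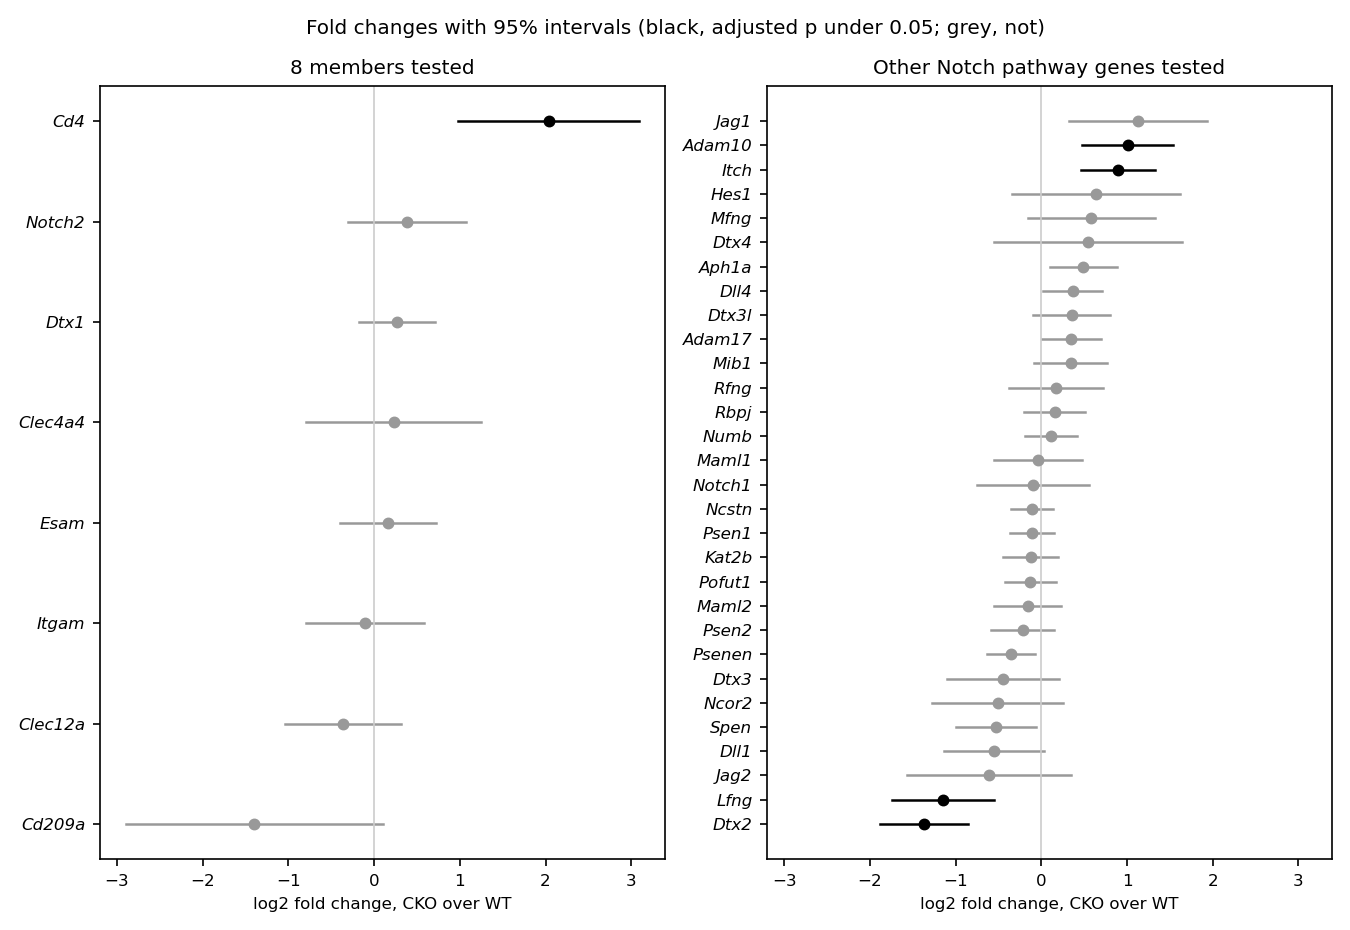
Log2 fold changes of CKO over WT with 95% intervals for the 8 members tested (left) and the 30 other Notch pathway genes tested (right); black marks an adjusted p under 0.05 and grey the rest. Cd4 stands at 2.04 on the left, and Adam10 and Itch (higher) and Lfng and Dtx2 (lower) are the black points on the right.

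Relatives and neighbours of the members were read from the same fit. Of 22 in the table, 11 were tested, 1 was higher and 2 were lower, where 8.87% of all genes tested passed. Clec4a1, in the same gene cluster as Clec4a4, fell from 6.04 ± 0.74 to 2.18 ± 0.64 CPM (log2 fold change -1.47 ± 0.25, SE; edgeR adjusted p = 0.0124), and kept its call in 18 of 18 alternatives. No alternative used monocyte or macrophage markers as a covariate. The monocyte and macrophage markers summed to means of 87.5 CPM in WT and 58.5 CPM in CKO, and the red pulp macrophage markers to 138 and 86.0 CPM. The part of such cells in the Clec4a1 counts was not tested. Lag3, whose protein resembles CD4 and binds MHC class II, fell from 5.77 ± 1.16 to 2.37 ± 0.84 CPM (edgeR adjusted p = 0.0223). Lag3 lost its call with D150, D154, D163 or D169 left out (highest adjusted p = 0.0785). Itgad, the CD11d chain and a relative of Itgam, had 0, 5, 2 and 0 counts in WT and 19, 12, 28 and 27 counts in CKO (edgeR adjusted p = 0.0182). Itgad passed the low-count filter only through its CKO libraries, the group where it is high. Without that filter its edgeR adjusted p was 0.0128. An adjusted p for Itgad was available in 17 alternatives, and DESeq2 was not among them. Its call was lost in 3 of these, without WT D154 or CKO D163 and with the B cell marker covariate (highest edgeR adjusted p = 0.0632). Its exons overlap those of Cox6a2 on the other strand, and Cox6a2 itself rose, at 1.74 ± 1.02 CPM (WT) and 6.09 ± 2.83 CPM (CKO; edgeR adjusted p = 0.0373), and strand is not stated to be kept. Of the other leukocyte integrin genes, Itgax stood at 6.97 ± 1.61 and 8.67 ± 2.03 CPM (adjusted p = 0.372).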

How the data were processed

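RNA-seq of 8 libraries was used, 4 WT and 4 CKO by their labels. Per the labels' protocols, polyA RNA was copied with a SMART-Seq low-input kit. Tools named in the submitters' processing notes are fastp 0.23.2 and the aligner HISAT2 2.2.1, with build mm10. No source used here names the counting program, annotation or strand setting. The deposited values are whole-number counts per gene without normalization. No 2 libraries were copies (smallest chi-square per degree of freedom 43.1).

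Genotypes were compared with the quasi-likelihood test of edgeR 4.0.16 (R 4.3.3), after TMM scaling and filterByExpr, with robust fitting and Benjamini-Hochberg adjustment over 11702 genes. The SE is the size of the log2 fold change over the square root of F, and a prior count of 2 entered log2 CPM. It was tested on simulated counts. Marker sums were compared with exact permutation tests (70 arrangements, smallest p 0.0286). GENCODE M21 supplied GC content, overlaps and 50-base words. Alternatives were other scalings and filters, DESeq2 1.42.0, limma-voom (limma 3.58.1), a GC and length offset (splines, 5 degrees of freedom), marker covariates and leaving out each library. The T cell receptor covariate was added after the data were seen.

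Named were all members, every called gene of 3 lists and otherwise up to 4 by p, and the 3 genes closest to Cd4 and Esam; others were chosen after their values were seen. The members and lists were chosen with earlier results of these data known.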

Additional observations from a re-analysis of the deposited data

How the results depend on the processing

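The number of members called fell to 0 with a minimum mean of 5 CPM, which left 3 members and not Cd4, and to 0 with the B cell marker or the T cell receptor complex covariate; leaving out 1 library gave 0 to 1. Over all genes, 1038 calls became 2012 with DESeq2, 464 with the B cell and 446 with the cDC1 marker covariate, 1306 with the T cell receptor complex covariate, and 70 to 1468 when 1 library was left out. No sign changed among the members except for Esam and Itgam, which were called in none of these fits. The log2 fold change of Esam ran from -0.035 to 0.35 when 1 library was left out (below 0 without WT D164 or CKO D149). That of Itgam was 0.068 with total-count scaling and ran from -0.33 to 0.094 when 1 library was left out (above 0 without WT D150 or CKO D149). The share of Esam was 37.8% in WT and 37.8% in CKO without division by length. The summed level per length differed by 0.15 in log2 (CKO over WT), and by 0.04 to 0.32 under its alternatives. No paired analysis was possible because the genotypes share no replicate numbers. Counts of Cd4, Cd209a and Clec4a4, between 5 and 68 per library, limit what differences could be detected, and the intervals of the other members leave changes of up to about 1 log2 unit undetected. The cause of each change of call was not tested.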

Other observations

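Some neighbours of 2 members changed where the members themselves gave no call, and other neighbours did not pass. In the Clec4a cluster on chromosome 6, Clec4a1 (122921848 to 122934619) fell, and Clec4a3 averaged 8.40 ± 2.17 CPM among WT and 4.24 ± 3.64 CPM among CKO libraries (edgeR adjusted p = 0.167), with 1 CKO library, D169 at 9.68 CPM, inside the WT range. Clec4a4 in the same cluster averaged 0.98 ± 0.69 and 1.13 ± 0.39 CPM. Farther along chromosome 6, Clec4n, Clec4d and Clec4e did not pass (edgeR adjusted p = 0.633, 0.547 and 0.842). Clec4a2, with 8 counts over WT and 36 over CKO, was too low to test. On chromosome 7, Itgad (128154376 to 128223816) lies beyond Itgam on the same strand, and Itgad had 7 counts over WT and 86 over CKO while Itgam had 253 and 232. The low WT counts of Itgad and its overlap with exons of Cox6a2, described above, limit this comparison. Itgax (128129547 to 128150657) lies between Itgam and Itgad and did not pass (edgeR adjusted p = 0.372).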
